A study of Mus musculus with 6 samples.

Results

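The 8 genes described here belong to the Notch pathway and were taken by name from a table of expression values in mouse proB cells. They are the receptors Notch1, Notch2 and Notch3, the DNA-binding factor Rbpj, and the target genes Hes1, Heyl, Dtx1 and Nrarp. All 8 were found among the 22098 gene symbols of the table. Of these, 7 reached a mean of at least 1 RPKM (reads scaled to transcript length and library size) over the libraries and were tested with the 10943 genes that did so, while Notch3 did not. Each gene is represented by its transcript with the highest mean.

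Notch receptors are cut by proteases when a neighbouring cell presents a Delta or Jagged ligand, and the freed intracellular part enters the nucleus. There it joins RBPJ, a protein that sits on DNA and otherwise recruits corepressors, and turns on genes such as the Hes and Hey repressors. In blood cell development Notch1 signals direct progenitors to the T lineage at the expense of B cells, and Notch2 directs mature B cells to the marginal zone. Ikaros, the zinc finger factor encoded by Ikzf1, recognises the DNA core TGGGAA, which is also the core of RBPJ sites, and has been described as a repressor of Notch targets in developing T cells.

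Total RNA was sequenced from proB cells sorted out of the bone marrow of C57BL/6 mice aged 6 to 7 weeks. The genotypes compared were wild type (wt), Ikaros_ZnF1-/- (ZnF1 mutant) and Ikaros_ZnF4-/- (ZnF4 mutant), which are mutant in zinc finger 1 or zinc finger 4 of Ikaros. Cells of each genotype were sorted into Hardy fraction B and the pool of fractions C and C', called fraction C here, 2 successive stages of early B-cell development. Each of the 6 combinations has 1 library, so single differences stand without replicates, and the number of mice behind a library is not given in the sources used here.

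The libraries listed between 10342 and 10947 genes at 1 RPKM or more, and their read depth is unknown. All 12 B-lineage markers were above 0 in every library. The ZnF1 fraction C library stood apart. Its summed RPKM of 11 granulocyte and monocyte markers was 40411.5, against 938.4 to 3555.1 elsewhere, that of 7 erythroid markers was 3553.9, against 80.1 to 244.7, and that of the B-lineage markers was 1973.1, against 2723.4 to 4999.2. Both wt libraries listed Xist at 81.3 and 91.9 RPKM and 4 Y-linked genes at 0, whereas the mutant libraries listed Xist at 0 and the Y-linked genes at 3.8 to 55.1 RPKM. Sex therefore differed between wt and both mutants and cannot be told apart from genotype in comparisons with wt, but not between the mutants. Ikzf1 itself was listed at 150.3 to 181.5 RPKM in the wt and ZnF1 libraries and at 425.1 and 431.6 RPKM in the ZnF4 libraries, values of the whole transcript that do not resolve the mutated finger.

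The receptors were present at similar levels in wt and ZnF4 libraries, with 1 exception among the ZnF1 libraries. Notch1 was listed in fraction B at 25.1 RPKM (wt), 27.3 (ZnF1) and 30.9 (ZnF4), and in fraction C at 17.2, 25.4 and 19.9. Its 6 values thus lay within a narrow span, with wt fraction C lowest and ZnF4 fraction B highest. Notch2 was listed in fraction B at 11.6 RPKM (wt), 12.2 (ZnF1) and 13.1 (ZnF4), and in fraction C at 6.4, 39.5 and 7.5. The ZnF1 fraction C library was the high one, and the other 5 lay between 6.4 and 13.1. Notch3 was listed in fraction B at 0.5 RPKM (wt), 0.3 (ZnF1) and 0.0 (ZnF4), and in fraction C at 0.2, 0.3 and 0.2, too low for a comparison.

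Rbpj, which carries the signal to DNA, was listed in fraction B at 2.2 RPKM (wt), 1.8 (ZnF1) and 3.2 (ZnF4), and in fraction C at 2.0, 1.8 and 3.5. The 2 ZnF4 libraries were the highest of the 6 and did not overlap the other 4. These levels are uncertain, because RefSeq annotates 3 Rbpj pseudogenes, how shared reads were divided is not given in the sources used here, and the 2 other listed Rbpj transcripts stood at 0 in every library.

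Among the target genes, Heyl had the widest range of all 8 genes on the log2(RPKM + 1) scale. Hes1, a repressor of the basic helix-loop-helix family, was listed in fraction B at 18.4 RPKM (wt), 33.0 (ZnF1) and 10.3 (ZnF4), and in fraction C at 18.6, 11.7 and 11.0. Both ZnF4 libraries lay below both wt libraries, and the ZnF1 libraries lay on either side of wt. Heyl, a repressor of the related Hey group, was listed in fraction B at 13.7 RPKM (wt), 7.6 (ZnF1) and 0.2 (ZnF4), and in fraction C at 15.8, 7.9 and 0.7. The 3 genotypes did not overlap, in the order wt, ZnF1, ZnF4, and within a genotype the 2 fractions were close.

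Nrarp, an ankyrin-repeat protein that binds the nuclear Notch complex and limits its activity, was listed in fraction B at 4.3 RPKM (wt), 7.4 (ZnF1) and 1.5 (ZnF4), and in fraction C at 4.6, 2.5 and 1.6. It followed the order of Hes1, with ZnF4 below wt in both fractions and ZnF1 above wt in fraction B and below it in fraction C. Dtx1, a ubiquitin ligase that binds the Notch intracellular part, was listed in fraction B at 3.2 RPKM (wt), 1.0 (ZnF1) and 5.8 (ZnF4), and in fraction C at 1.3, 0.7 and 2.6. Its order was the opposite of the other targets in ZnF4, which was the highest genotype in each fraction, and ZnF1 was the lowest. The wt fraction B value was above the ZnF4 fraction C value, so these 2 genotypes overlapped.

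**Figure D1:**
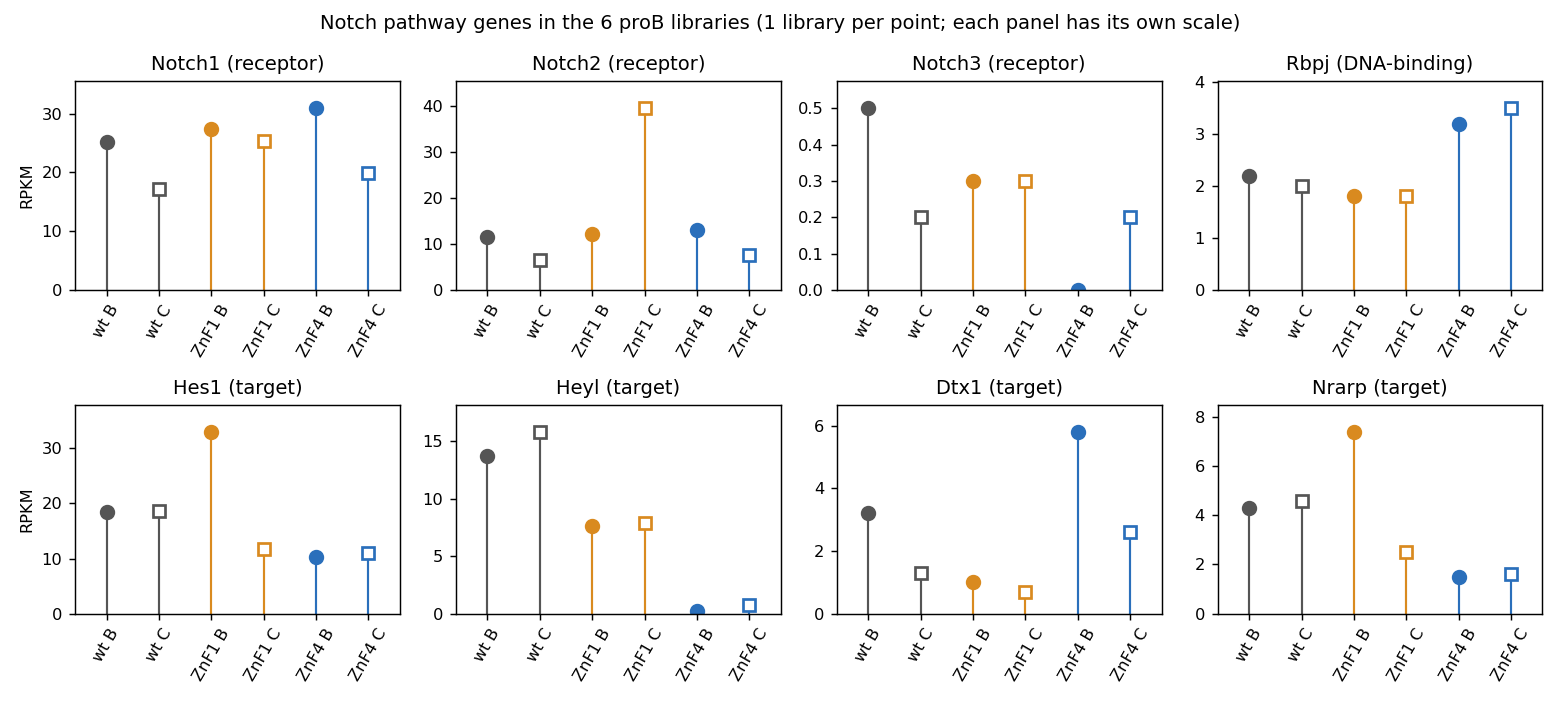
RPKM of the 8 genes in the 6 libraries, 1 point per library with no error bar, as circles for fraction B and squares for fraction C, with genotype by colour and a separate linear axis from 0 for each gene. Heyl stands at 13.7 and 15.8 in wt and at 0.2 and 0.7 in the ZnF4 mutant, and Notch2 stands at 39.5 in the ZnF1 fraction C library alone.

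The order of the levels within a library changed accordingly. In wt fraction B it ran Notch1, Hes1, Heyl, Notch2, Nrarp, Dtx1, Rbpj, Notch3, and in wt fraction C Hes1 came first, ahead of Notch1 by 18.6 to 17.2 RPKM, and Dtx1 came after Rbpj by 1.3 to 2.0. In both ZnF4 libraries Heyl was next to last, above Notch3 only. With 1 library per combination, the order of neighbours that differ by less than the 2 fractions of a genotype do, such as Notch1 and Hes1 in wt, is not resolved.

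To ask whether the letters shared by Ikaros and RBPJ lie in front of these genes, the 250 bases before each annotated start were searched on both strands for TGGGAA and for the longer GTGGGAA, which contains it. RefSeq windows on GRCm38.p6 were found for 6 of the 8 genes, 7 windows in all, and not for Hes1 and Heyl. The expression values come from another build, mm9, and were joined by symbol only. Of all 32851 windows of this length, 21.6% held TGGGAA and 5.42% held GTGGGAA. Among the 8 genes, Rbpj held TGGGAA, at positions -149 and -65 of its first window counted from the transcript start, and no window held GTGGGAA. In the wider pathway of 84 genes listed further on, 68 had windows, 87 in all. TGGGAA was found in 21 of these genes and GTGGGAA in 8. These are counts of genes, some with several windows, whereas the shares above are of windows. Among these genes are Hes5, with the TGGGAA core at -226 and -82, and Lfng, with the core at -135 and -108. Both Hes5 matches lie within GTGGGAA, 1 on each strand, and so does the Lfng match at -108. Nrarp and Dtx1 are shown because they differed in opposite directions in the ZnF4 mutant, Rbpj because it holds the core, and Hes5 and Lfng as pathway genes with the core that were lower in both ZnF4 libraries. Others with the core were higher in both, such as Psen2, a gamma-secretase subunit, with GTGGGAA at -89, at 39.7 and 26.6 RPKM in ZnF4 against 21.6 and 17.9 in wt in fractions B and C, and Poglut1, with TGGGAA at -63, at 11.5 and 11.1 against 9.6 and 9.3. Capitals mark TGGGAA or its reverse complement TTCCCA. A match describes these letters and is not evidence of binding. The windows are Nrarp at chr2:25180508-25180757 (plus strand), Dtx1 at chr5:120711670-120711919 (minus strand), Rbpj at chr5:53590096-53590345 (plus strand), Hes5 at chr4:154960673-154960922 (plus strand) and Lfng at chr5:140607091-140607340 (plus strand), each written 5′ to 3′ on the gene's strand.
Nrarp: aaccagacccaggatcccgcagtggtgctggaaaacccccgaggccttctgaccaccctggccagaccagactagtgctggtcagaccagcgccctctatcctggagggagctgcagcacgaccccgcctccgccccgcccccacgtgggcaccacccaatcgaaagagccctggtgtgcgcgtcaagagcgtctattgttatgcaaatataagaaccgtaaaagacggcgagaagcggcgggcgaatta
Dtx1: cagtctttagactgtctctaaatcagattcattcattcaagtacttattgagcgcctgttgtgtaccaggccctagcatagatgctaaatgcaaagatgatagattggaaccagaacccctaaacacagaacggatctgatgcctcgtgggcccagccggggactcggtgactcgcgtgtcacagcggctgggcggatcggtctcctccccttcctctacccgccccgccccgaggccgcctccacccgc
Rbpj: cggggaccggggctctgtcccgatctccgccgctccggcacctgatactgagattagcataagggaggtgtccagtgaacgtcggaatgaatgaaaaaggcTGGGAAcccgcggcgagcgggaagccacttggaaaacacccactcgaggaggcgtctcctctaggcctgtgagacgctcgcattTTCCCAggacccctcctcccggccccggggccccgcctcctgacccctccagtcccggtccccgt
Hes5: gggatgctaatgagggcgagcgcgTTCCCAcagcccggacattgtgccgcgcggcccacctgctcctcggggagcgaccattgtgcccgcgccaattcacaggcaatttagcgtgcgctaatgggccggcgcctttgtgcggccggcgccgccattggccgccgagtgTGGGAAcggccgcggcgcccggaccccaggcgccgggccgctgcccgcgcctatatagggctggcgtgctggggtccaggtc
Lfng: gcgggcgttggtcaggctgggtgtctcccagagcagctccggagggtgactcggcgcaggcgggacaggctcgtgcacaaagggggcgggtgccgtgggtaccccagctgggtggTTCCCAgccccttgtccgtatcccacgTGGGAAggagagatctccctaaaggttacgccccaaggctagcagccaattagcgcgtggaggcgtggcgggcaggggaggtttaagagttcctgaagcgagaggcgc

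Compared with wt, the ZnF4 mutant had lower values of 3 of the 4 targets in both fractions. Rbpj was higher, and Notch1 and Notch2 were slightly higher. Folds are given on the log2(RPKM + 1) scale, where folds of weakly expressed genes come out too small. Heyl was 12.25-fold lower in fraction B and 9.882-fold lower in fraction C, Nrarp 2.12-fold and 2.154-fold lower, and Hes1 1.717-fold and 1.633-fold lower. With a pseudocount of 0.25 in place of 1, the log2 difference of Heyl over both fractions moved from -3.46 to -4.52. Dtx1 went the other way, 1.619-fold higher in fraction B and 1.565-fold higher in fraction C. Rbpj was 1.312-fold and 1.5-fold higher, Notch1 1.222-fold and 1.148-fold higher, and Notch2 1.119-fold and 1.149-fold higher.

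Set side by side, the median log2 difference of the 4 targets was -0.93 in fraction B and that of the receptors and Rbpj 0.23, a gap of -1.16. In fraction C these values were -0.91, 0.20 and -1.11. Notch3, which did not pass the filter, is 1 of the receptors in these medians. The gap kept its sign under each scaling and pseudocount tried and without any single gene. Of the 7 genes past the filter, 3 (Hes1, Heyl, Nrarp) had both ZnF4 libraries below both wt libraries, a pattern shown by 33.0% of all genes tested, and 1 (Rbpj) had both above, against 27.7% of all. Heyl and Nrarp were at least 2-fold lower in both fractions, against 4.73% of all genes, and no member was 2-fold higher in both, against 2.59%. In single fractions the same 2 genes were the members at least 2-fold lower, against 9.81% of genes in fraction B and 6.12% in fraction C, and no member was 2-fold higher, against 3.7% and 3.55%. In bulk RNA, fewer cells that express a gene and less RNA per cell cannot be told apart.

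The test across genes was limma, fitted to the 6 libraries with additive terms for genotype and for fraction, which leaves 2 residual degrees of freedom. No member passed an adjusted p of 0.05 for ZnF4 against wt, and 1 of the 7 had an unadjusted p under 0.05. Over all genes, 0.00914% passed as higher and 0.0183% as lower, 3 genes in all, with 1930 at an unadjusted p under 0.05. The estimate for Heyl was a log2 difference of -3.46 (SE 0.22), with a limma p of 4.634e-05 and an adjusted p of 0.0774. Nrarp had -1.10 (SE 0.42, limma adjusted p 0.29), Hes1 -0.74 (SE 0.43, 0.432) and Dtx1 0.67 (SE 0.30, 0.337). Rbpj, Notch1 and Notch2 had 0.49, 0.24 and 0.18, with adjusted p from 0.361 to 0.899.

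The spread in this fit comes from genotype differences that are unequal between fractions. Leaving out the ZnF1 fraction C library cannot change the log2 differences for ZnF4 against wt. The 1 ZnF1 library that remains is fitted exactly and adds no spread. The differences were -3.46 for Heyl, -0.74 for Hes1, -1.10 for Nrarp and 0.67 for Dtx1. The fit without that library, like each one without 1 library or with only 2 genotypes, leaves 1 residual degree of freedom. The differences are also fixed without the ZnF1 fraction B library and with only the wt and ZnF4 libraries, so these fits are not separate checks. With only the wt and ZnF4 libraries, 3494 of all 10943 genes passed limma, among them 4 of the 7 members. Their limma adjusted p was 0.00442 for Heyl, 0.0119 for Hes1, 0.013 for Nrarp and 0.0364 for Dtx1. Without the ZnF1 fraction B library 3372 genes and the same number of members passed, whereas without any 1 of the wt or ZnF4 libraries 0 did. Over all alternatives the limma adjusted p ranged from 0.00442 to 0.953 for Heyl, 0.0119 to 1 for Hes1, 0.012 to 1 for Nrarp and 0.0364 to 1 for Dtx1. Sex, which differs between these genotypes, cannot be told apart from them here.

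Markers of other marrow cells moved with this comparison. The summed RPKM of 8 NK cell markers was 86.2 and 44.2 in wt fractions B and C, and 2.5 and 9.2 in the ZnF4 mutant, where 6 of the 8 were at 0 in fraction B and 1, Ncr1, in fraction C. All 7 of these that passed the filter were lower in both ZnF4 libraries. That of 7 plasmacytoid dendritic cell markers was 125.9 and 68.4 in wt and 17.6 and 18.2 in the ZnF4 mutant, with 6 of the 6 that passed lower in both fractions. The sum of 11 granulocyte and monocyte markers was 3555.1 and 2482.6 in wt and 938.4 and 1618.4 in ZnF4, with 10 of 11 lower in each fraction. That of 7 erythroid markers was 244.7 and 183.3 in wt and 80.1 and 140.6 in ZnF4, with 7 of 7 lower in fraction B and 6 of 7 in fraction C. The T cell sum was 57.8 and 76.3 in wt and 47.4 and 65.9 in ZnF4, with 6 of the 8 markers past the filter lower in fraction B and 8 of 8 in fraction C, and with Cd3e, Cd3g and Cd28 at 0 in ZnF4 fraction B. Lck (31.8 and 54.4 in wt, 32.3 and 52.4 in ZnF4) and Cd247 (10.4 and 12.4, 13.1 and 10.8) made up most of these sums. Cd4, for example, stood at 5.7 and 1.9 in wt and at 0.1 and 0.4 in ZnF4. The sum of the B-lineage markers was 3288.3 and 2723.4 in wt and 4999.2 and 4571.6 in ZnF4, with 9 of 12 higher in each fraction. In wt, Heyl stood at 13.7 and 15.8 RPKM in fractions B and C while the NK sum stood at 86.2 and 44.2. In the ZnF1 mutant Heyl stood at 7.6 and 7.9 while the NK sum stood at 55.0 and 103.8. The NK markers did not move together in that step. Of the 7 past the filter, 4 were higher in fraction C and 3 lower, with a median log2 difference of 0.16. Nkg7 went from 9.9 to 43.2 RPKM and Klrd1 from 7.6 to 3.2. The part of these cells in the differences of Heyl, Nrarp and Hes1 was not tested.

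**Figure D2:**
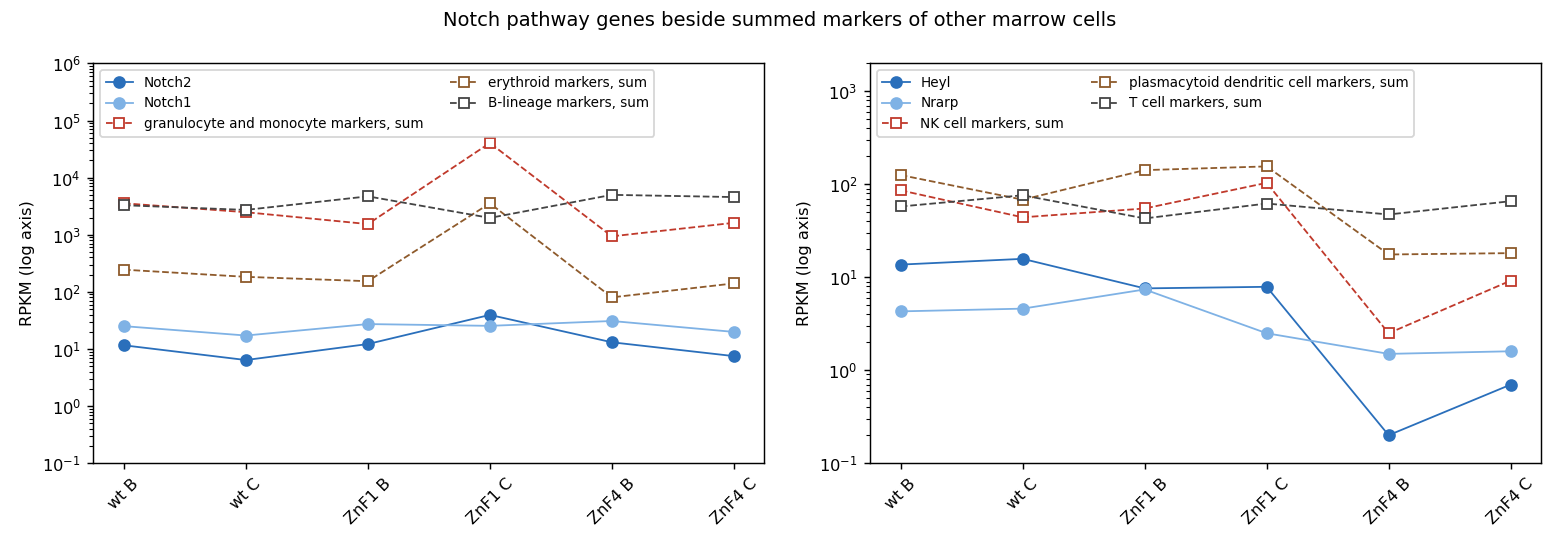
RPKM on a log axis in the 6 libraries, with filled circles for single genes and open squares for summed marker lists, joined by lines only to guide the eye. On the left, Notch2 and the granulocyte and erythroid sums peak together in the ZnF1 fraction C library, and on the right, Heyl stands at 0.2 and 0.7 and the NK cell sum at 2.5 and 9.2 in the ZnF4 libraries.

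Between the 2 mutants, Heyl was the member that passed the test. It fell by 2.61 on the log2 scale in ZnF4 against ZnF1 (SE 0.22, limma adjusted p 0.0377) and was lower in 2 of 2 fractions, 7.167-fold in B and 5.235-fold in C. This was 1 member of 7, against 0.676% of all genes passing as lower and 1.14% as higher. Over all alternatives the limma adjusted p of Heyl ranged from 0.00289 to 0.456, and the call was lost without ZnF4 fraction B (0.456) or ZnF4 fraction C (0.244). It was also lost with no filter on low values (0.0871), after rescaling to B-lineage genes (0.0787) and with only the 2 mutants in the fit (0.0525). In fits without 1 library, which leave 1 residual degree of freedom, the log2 difference of Heyl ranged from -2.805 to -2.424. All 4 mutant libraries had Xist at 0, so the sex difference does not enter this pair. In both fractions of this comparison, all 7 NK cell and all 6 plasmacytoid dendritic cell markers past the filter were at least 2-fold lower in ZnF4, and all 11 granulocyte and monocyte markers were lower. The part of these cells in the Heyl difference was not tested.

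Dtx1 differed between the mutants in the opposite direction. It was 3.4-fold higher in ZnF4 than in ZnF1 in fraction B and 2.118-fold higher in fraction C, with a log2 difference of 1.42 (SE 0.30, limma adjusted p 0.0909). Both ZnF4 libraries were at least 2-fold above ZnF1 for this 1 member of 7, against 3.11% of all genes, and Heyl was the 1 member 2-fold lower in both, against 5.45%. Dtx1 and Rbpj had both ZnF4 libraries above both ZnF1 libraries, against 24.5% of all genes, and Hes1, Heyl and Nrarp had both below, against 27.5%. Rbpj had a log2 difference of 0.63 (SE 0.23, 0.214) and Nrarp -1.09 (SE 0.42, 0.227), neither past the limma threshold. Without the ZnF1 fraction C library Nrarp had -1.75 and passed (limma adjusted p 0.0108, range over the alternatives 0.0108 to 0.769), and without the ZnF1 fraction B library it had -0.42. Hes1 was 3.009-fold lower in fraction B and 1.058-fold lower in fraction C, and Notch2 1.068-fold higher and 4.765-fold lower. Before rescaling, both genes thus differed mainly in 1 fraction. The fraction C values rest on the ZnF1 library with the high granulocyte and erythroid sums and the lowest B-lineage sum. At least 2-fold apart in fraction B were Dtx1 as higher, against 4.95% of all genes, and Hes1, Heyl and Nrarp as lower, against 10.9%. In fraction C they were Dtx1 as higher, against 7.41%, and Notch2 and Heyl as lower, against 14.1%. After rescaling to B-lineage genes the fraction C counts were 0 higher and 5 lower, with Hes1 and Notch2 among the lower. The log2 difference of Dtx1 there was 0.592 in place of 1.08, under 2-fold. The median log2 difference of the targets minus that of the receptors and Rbpj was -1.80 in fraction B and -0.029 in fraction C.

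The ZnF1 mutant against wt showed no uniform pattern of the targets. This comparison shares its wt libraries with that of ZnF4 against wt. Heyl was 1.709-fold lower in fraction B and 1.888-fold lower in fraction C, and Dtx1 2.1-fold and 1.353-fold lower. Hes1 was 1.753-fold higher in fraction B and 1.543-fold lower in fraction C, and Nrarp 1.585-fold higher and 1.6-fold lower. The fraction C values rest on the ZnF1 library with the high granulocyte and erythroid sums and the lowest B-lineage sum. After rescaling to B-lineage genes the log2 differences in fraction C were 0.187 for Hes1, -0.012 for Nrarp, -0.127 for Heyl and -0.016 for Dtx1. Dtx1 was the 1 member at least 2-fold lower in fraction B, against 2.21% of all genes (2.07% higher), and none was in fraction C, against 7.39%. No member was 2-fold apart in the same direction in both fractions, against 0.758% of genes higher and 0.804% lower. The gap between the targets and the receptors with Rbpj was 0.008 in fraction B and -0.98 in fraction C.

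Among the 7 members, Rbpj, Heyl and Dtx1 had both ZnF1 libraries below both wt libraries, against 23.6% of all genes, though Rbpj was above wt in fraction C after rescaling to B-lineage genes (log2 0.521). Notch1 and Notch2 had both above, against 19.4%, but both were lower than wt in fraction B after rescaling to B-lineage genes, by -0.197 and -0.23 (log2). No member passed limma for ZnF1 against wt, and 1 had an unadjusted p under 0.05. Of all genes 0.00914% passed as higher and 0.0183% as lower, with 1018 at an unadjusted p under 0.05. The log2 differences were -0.85 for Heyl (SE 0.22, limma adjusted p 0.479), -0.75 for Dtx1 (SE 0.30, 0.525) and 1.26 for Notch2 (SE 0.67, 0.549). Notch2 had 2.44 without the ZnF1 fraction B library (limma adjusted p 0.0059, range over the alternatives 0.0059 to 1) and 0.0765 without the ZnF1 fraction C library. Both of these fits leave 1 residual degree of freedom.

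**Figure D3:**
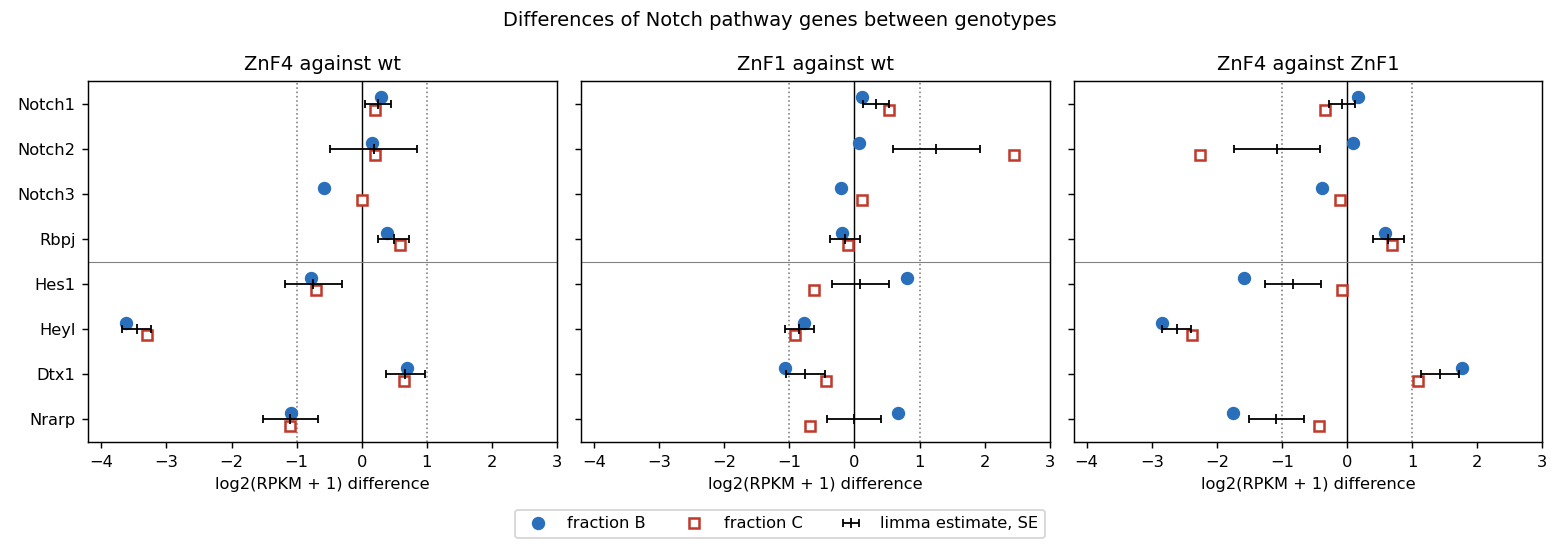
Differences of log2(RPKM + 1) between genotypes for the 8 genes, as filled circles for fraction B, open squares for fraction C and black bars for the limma estimate with 1 SE, with dotted lines at 2-fold. Notch3 has no estimate because it did not pass the filter, Heyl lies left of all other genes in the ZnF4 panels, and Notch2 departs from 0 in fraction C of the panels that involve ZnF1.

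The high Notch2 of the ZnF1 fraction C library was 5.473-fold above wt fraction C and 3.068-fold above ZnF1 fraction B. It was the 1 member at least 2-fold above wt there, against 12.6% of all genes. In this library all 11 granulocyte and monocyte markers and all 7 erythroid markers were at least 2-fold above wt fraction C, and 8 of 12 B-lineage markers were lower. Between wt and ZnF1 in fraction B, Notch2 was 1.048-fold higher while 10 of the 11 granulocyte and monocyte markers were lower. The part of these cells in the Notch2 value was not tested.

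From fraction B to fraction C, wt cells had 1.434-fold lower Notch1, 1.703-fold lower Notch2 and 1.826-fold lower Dtx1. ZnF4 cells had 1.526-fold, 1.659-fold and 1.889-fold lower values of the same genes. Hes1, Heyl and Nrarp differed by at most 1.143-fold between the fractions in wt. No member was 2-fold apart between the fractions in wt, against 0.338% of genes higher and 1.01% lower, and none was in ZnF4, against 2.76% and 0.585%. In ZnF1 cells Notch2 was 3.068-fold higher in fraction C and Hes1 and Nrarp were 2.677-fold and 2.4-fold lower. In this step all 12 B-lineage markers were lower, 10 of them at least 2-fold, and all 11 granulocyte and monocyte and all 7 erythroid markers were at least 2-fold higher, and their part in these values was not tested. The members' counts there were 1 higher and 2 lower, against 10.1% of genes at least 2-fold higher and 4.16% lower. No member and no gene passed limma for fraction C against B (0.0% higher, 0.0% lower), with 511 genes at an unadjusted p under 0.05, Dtx1 among them. After rescaling to B-lineage genes the limma differences of Notch1, Hes1 and Nrarp changed sign to 0.251, 0.207 and 0.161, as the median of all genes moved from 0.04 to 0.65.

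Around the 8 genes, 8 lists covering 84 genes of the pathway, the 8 included, were examined, of which 65 passed the filter. In ZnF4 against wt, 8 of 12 target genes past the filter, with Hes1, Heyl, Nrarp and Dtx1 among the 12, were lower in fraction B, with a median log2 difference of -1.02, and 8 of 12 in fraction C, with a median of -0.53. Of all genes tested 55.8% were lower in fraction B and 53.0% in fraction C. The 58 genes past the filter other than the members had medians of -0.104 and -0.041. The medians of all genes tested were -0.089 and -0.047. The other lists with more than 2 genes past the filter lay nearer to 0. The receptor glycosylation enzymes had medians of -0.02 and -0.24, the nuclear complex and its coactivators -0.093 and 0.024, the cleavage enzymes 0.061 and 0.194, the corepressors -0.145 and -0.098, and the modulators -0.075 and 0.078. Lower target genes were not particular to ZnF4. In ZnF1 against wt, 9 of the 12 target genes were lower in fraction B and 11 in fraction C, with medians of -0.374 and -0.632. Of all genes tested 43.8% and 58.8% were lower there. The fraction C values rest on the ZnF1 library with the high granulocyte and erythroid sums.

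Of the 65 genes, 6 were at least 2-fold lower in both ZnF4 libraries (Heyl, Nrarp, Myc, Lfng, Nedd4, Kat2a) and 1 was 2-fold higher (Trib2), against 4.73% and 2.59% of all genes. In limma for ZnF4 against wt, 0 of the 65 passed, with 12 at an unadjusted p under 0.05, 4 of them higher and 8 lower, against 7.9% and 9.74% of all genes. For ZnF4 against ZnF1, 2 of the 65 passed, Trib2 as higher and Heyl as lower, against 1.14% and 0.676% of all genes, with 7 higher and 12 lower at an unadjusted p under 0.05, against 10.4% and 12.3%.

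Trib2, a pseudokinase known as a Notch1 target in T-cell leukaemia, was listed in fraction B at 13.2 RPKM (wt), 8.3 (ZnF1) and 76.3 (ZnF4), and in fraction C at 7.2, 6.1 and 61.2. It rose by 3.09 on the log2 scale in ZnF4 against ZnF1 (SE 0.20, limma adjusted p 0.0359, range over the alternatives 0.00236 to 0.444) and was higher in 2 of 2 fractions. The call was lost without ZnF4 fraction B (0.444) or fraction C (0.224), without a filter (0.0871) and after rescaling to B-lineage genes (0.0824). Against wt its log2 difference was 2.68 (SE 0.20, limma adjusted p 0.0816), opposite in sign to that of Heyl. Myc, which drives growth and is a Notch1 target in T cells, was listed in fraction B at 48.7 RPKM (wt), 25.7 (ZnF1) and 5.5 (ZnF4), and in fraction C at 91.7, 22.5 and 11.3. Its libraries followed the order of Heyl, wt above ZnF1 above ZnF4 in each fraction. Hes5, another Hes repressor, was listed in fraction B at 2.0 RPKM (wt), 3.9 (ZnF1) and 0.4 (ZnF4), and in fraction C at 2.2, 1.9 and 1.0, below wt in both ZnF4 libraries like Hes1. The T-lineage targets Ptcra, Gata3 and Bcl11b, with Hes7, Hey1, Hey2, Cr2 and Notch3, did not pass the filter and reached at most 0.6 RPKM in any library.

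Among the genes that act on the receptors, the fringe glycosyltransferases Lfng and Mfng had lower values in both ZnF4 libraries. Lfng, which modifies Notch receptors and alters their choice of ligand, was listed in fraction B at 24.5 RPKM (wt), 52.2 (ZnF1) and 4.7 (ZnF4), and in fraction C at 22.8, 27.4 and 7.7. It was 4.474-fold and 2.736-fold lower in ZnF4 than in wt, with a log2 difference of -1.81 (SE 0.39, limma adjusted p 0.153, range over the alternatives 0.00717 to 1). Mfng, of the same family, was listed in fraction B at 35.0 RPKM (wt), 61.1 (ZnF1) and 19.0 (ZnF4), and in fraction C at 33.0, 30.0 and 15.0. In both genes, the ZnF4 libraries were the 2 lowest of the 6, and ZnF1 fraction B was the highest. Rfng, the other fringe gene, did not share this, with 10.4 RPKM in ZnF4 against 9.1 in wt in fraction B and 8.5 against 10.5 in fraction C.

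Nedd4, a ubiquitin ligase that can act on Notch receptors, was listed in fraction B at 58.3 RPKM (wt), 40.0 (ZnF1) and 9.4 (ZnF4), and in fraction C at 78.2, 41.5 and 24.5. Kat2a, a histone acetyltransferase, was listed in fraction B at 26.8 RPKM (wt), 33.0 (ZnF1) and 12.6 (ZnF4), and in fraction C at 38.3, 20.4 and 17.3. For both genes the ZnF4 libraries were the 2 lowest. Of the 6 ligands only Jag2 passed the filter, with fraction B values of 1.9 (wt), 2.0 (ZnF1) and 0.8 RPKM (ZnF4) and fraction C values of 3.4, 0.7 and 0.7, and the other 5 reached at most 1.4 RPKM. Notch4 did not pass the filter either.

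**Figure D4:**
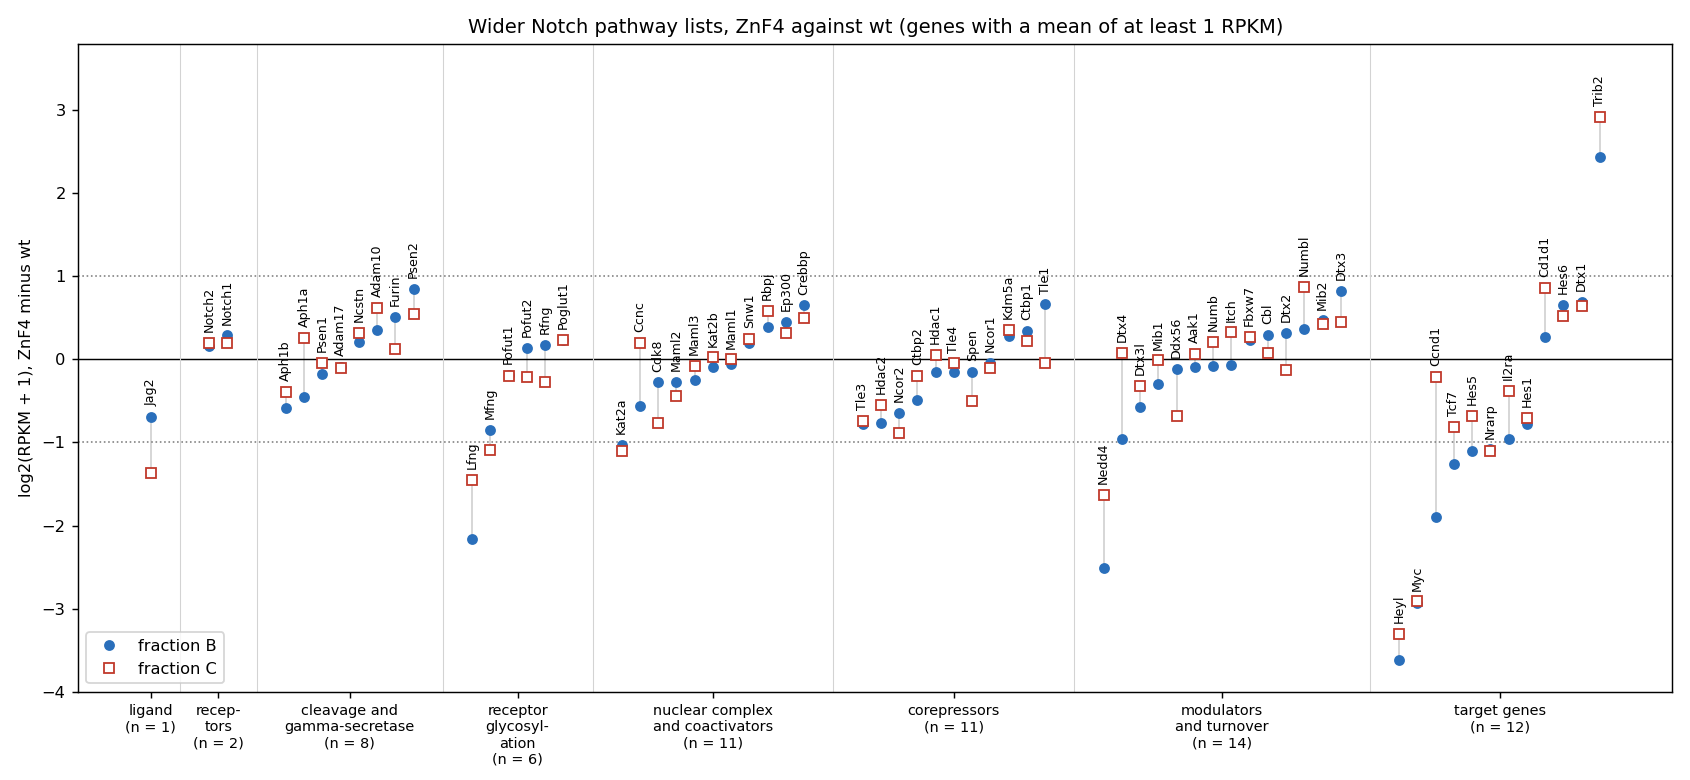
ZnF4 minus wt differences of log2(RPKM + 1) for the 65 pathway genes past the filter, grouped by role and ordered by fraction B within a role, with circles for fraction B, squares for fraction C, a grey line joining the same gene and dotted lines at 2-fold. The target genes spread from Heyl and Myc at the bottom to Trib2 at the top, while Notch1 and Notch2 lie just above 0.

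For each member whose log2(RPKM + 1) spanned at least 1, the 3 genes with the smallest root mean square difference of centred log2 values over the 6 libraries were listed. For Heyl they were Fcrl6 (0.291), Lax1 (0.364) and Arpp21 (0.4). Hes1 had Cyp2j9 (0.109), Bcl9l (0.122) and Nrarp itself (0.156), and Nrarp had 9930012K11Rik (0.135), Cyp2j9 (0.135) and Fam189b (0.141). Nrarp was thus among the nearest genes to Hes1 out of all 10943. Dtx1 had Lipc (0.164), Lrrc10b (0.177) and Dnajc7 (0.179), and Notch2 had Ncf4 (0.111), Tcn2 (0.163) and H2-T24 (0.165). Ncf4, a subunit of the phagocyte oxidase, was listed at 145.4 RPKM in the ZnF1 fraction C library and at 26.2 to 45.5 in the other 5. No gene came as close to Heyl as the nearest genes did to Hes1, Nrarp, Dtx1 and Notch2. These distances are not scaled to a gene's span, which was 3.807 (log2) for Heyl and 1.589 to 2.452 for the others.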

How the data were processed

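Total RNA of sorted proB cells was sequenced from TruSeq libraries, per the labels' protocols, with 1 library per genotype and fraction. The deposited values are RPKM computed by the authors for each RefSeq transcript, per the file headers, and rounded to 0.1. The submitters' processing notes name TopHat, bedtools and build mm9 and give neither version nor role. Handling of strand and shared reads is not given in the sources used here. The transcript lengths that the authors deposited beside the RPKM served to test whether whole reads could be recovered. For transcripts up to 150 bases, 28.3% to 52.5% of values in a library fitted whole reads within the rounding, against 22.1% to 43.2% of chance values, so reads were not recovered, depth is unknown, and no counting interval is given.

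Of 26532 entries, the 1 that names no gene was not used, and there were 0 columns of other samples. Each symbol was represented by its transcript with the highest mean RPKM, and those averaging at least 1 RPKM were tested. Values were taken as log2(RPKM + 1). Under R 4.3.3, limma 3.58.1 with a trended prior was fitted to the 6 libraries, with additive terms for genotype and for fraction. The fit had been tested on simulated data with independent noise and equal shifts in both fractions. Those data held no genotype differences that are unequal between fractions, so they do not check the spread of this fit. Tests are two-sided with Benjamini-Hochberg adjustment over all genes tested, at 0.05. The number of animals per library is not given, and no combination has a replicate library. The p-values therefore set a difference only against how unequal genotype differences were between the fractions, which may be technical. They do not measure a spread between replicates or animals. Genotype-by-fraction differences leave no residual degrees of freedom and were not tested.

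Alternatives were a pseudocount of 0.25, no filter or a minimum mean of 5 RPKM, sums over transcripts, rescaling to the upper quartile or to B-lineage marker genes, no trend, only the 2 genotypes compared, and leaving out each library. Named genes are the 8 members with every library value, up to 3 highest and 3 lowest folds of a wider list as examples, the label checks, and the 3 genes most like a member. The members and all lists were chosen with earlier results of these data known, so they are no independent support. Promoter windows come from RefSeq on GRCm38.p6, and the motif shares count all windows of 250 bases.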

Additional observations from a re-analysis of the deposited data

Results flagged for a closer look

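Hes1 and Nrarp differed between ZnF1 and wt in opposite directions in the 2 fractions. The fraction B difference minus the fraction C difference was 1.44 for Hes1 and 1.34 for Nrarp (log2). With 1 library per combination, this difference was not tested. The fraction C values rest on the ZnF1 fraction C library, with a granulocyte and monocyte marker sum of 40411.5 RPKM and the lowest B-lineage sum, 1973.1, and the part of these cells was not tested. After rescaling to B-lineage genes the fraction C difference of Hes1 was 0.187, the same direction as in fraction B, and that of Nrarp was -0.012.

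Notch2 was lower in fraction C than in fraction B in wt and ZnF4 cells and higher in ZnF1 cells. The wt step minus the ZnF1 step was -2.385, and the ZnF1 step minus the ZnF4 step was 2.35 (log2). Both rest on the ZnF1 fraction C library, and neither difference was tested. In that library the granulocyte and monocyte marker sum was 40411.5 RPKM, and its part in the Notch2 value was not tested.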

How the results depend on the processing

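No paired analysis was possible because the labels give no replicate numbers and each genotype and fraction has 1 library. In fits that leave out a library, the lone library left in an arm is assumed to vary like the others. A minimum mean of 5 RPKM left no value for Rbpj, Dtx1 and Nrarp, and Notch3 was tested only without a filter. Unless stated, the cause of a change was not tested. RPKM sets no counting limit on low genes such as Heyl in ZnF4.

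The number of genes passing limma for ZnF4 against wt (3) was 5 with a pseudocount of 0.25, 0 without a filter, 1 with a minimum mean of 5 RPKM, 1 rescaled to B-lineage genes, 6 without trend, 3494 with only the 2 genotypes compared and 0 to 3453 without single libraries. Members passing (0) were 4 with only the 2 genotypes and 0 to 4 without single libraries. For ZnF1 against wt, genes passing (3) were 0 without a filter, 1 with the minimum of 5, 1 rescaled to B-lineage genes, 5 without trend, 0 with only the 2 genotypes and 0 to 4116 without single libraries, and members passing (0) were 0 to 4. For ZnF4 against ZnF1, genes passing (199) were 0 without a filter, 0 rescaled to B-lineage genes and 0 to 4109 without single libraries, and members passing (1) were 0 in the former 2, 0 with only the 2 genotypes and 0 to 4 without single libraries.

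Rescaling to B-lineage genes moved the median of all genes from -0.0284 to 0.2225 for ZnF1 against wt, from -0.039 to -0.3401 for ZnF4 against ZnF1 and from 0.0398 to 0.6515 for fraction C against B. Limma differences that changed sign with it were those of Nrarp (0.178) and Rbpj (0.075) for ZnF1 against wt, and of Hes1 (0.207), Notch1 (0.251) and Nrarp (0.161) for C against B. With the upper quartile Notch2 (-0.027) and Rbpj (-0.05) changed sign for C against B and Notch1 (0.015) for ZnF4 against ZnF1, and with a pseudocount of 0.25 Rbpj (-0.001) did for C against B. Without single libraries, the values for C against B ranged from -0.703 to 0.051 for Hes1, -0.749 to 0.444 for Notch2, -0.603 to 0.068 for Nrarp and -0.047 to 0.05 for Rbpj. Those for ZnF1 against wt ranged from -0.644 to 0.828 for Hes1, -0.672 to 0.659 for Nrarp, 0.076 to 2.443 for Notch2, 0.094 to 0.559 for Notch1 and -1.083 to -0.424 for Dtx1, those for ZnF4 against ZnF1 from -0.315 to 0.15 for Notch1, -2.262 to 0.105 for Notch2, -1.754 to -0.423 for Nrarp and -1.571 to -0.1 for Hes1, and those for ZnF4 against wt from -0.425 to 0.787 for Notch2, 0.095 to 0.395 for Notch1 and -1.139 to -0.349 for Hes1. With a pseudocount of 0.25 Heyl had -4.52 for ZnF4 against wt and -3.61 for ZnF4 against ZnF1. Heyl, Nrarp, Hes1, Dtx1 and Rbpj kept their direction for ZnF4 against wt under every alternative run. The filters, no trend, leaving out a ZnF1 library and using only the 2 genotypes cannot change these differences, so they do not test direction.

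Rescaled to B-lineage genes, members at least 2-fold lower in ZnF1 than wt numbered 2 in fraction B, and 2 were at least 2-fold higher in fraction C. For ZnF4 against ZnF1 in fraction C, 0 were at least 2-fold higher and 5 lower. The gap between targets and receptors with Rbpj was near 0 in 2 comparisons and changed there. For ZnF1 against wt in fraction B (0.008) it was 0.053 with a pseudocount of 0.25, -0.016 with the upper quartile, -0.099 with B-lineage genes, 0.138 without Notch1 or Notch2, -0.122 without Notch3 or Rbpj, -0.711 without Hes1 or Nrarp and 0.727 without Heyl or Dtx1. For ZnF4 against ZnF1 in fraction C (-0.029) it was -0.011 with a pseudocount of 0.25, -0.249 with B-lineage genes, -0.14 without Notch1 or Notch2, 0.082 without Notch3 or Rbpj, -0.203 without Hes1 or Dtx1 and 0.144 without Heyl or Nrarp.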
